A study of Homo sapiens with 10 samples.

Results

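The genes described here are the 7 CDK inhibitors CDKN1A, CDKN1B, CDKN1C, CDKN2A, CDKN2B, CDKN2C and CDKN2D. They were found by exact symbol among 25593 gene entries measured by RNA sequencing in 10 libraries of U2OS-derived cells. U2OS is a human osteosarcoma cell line. One derived line is labelled p53 KO and the other, a control CRISPR line, p53 WT. Each line was given an siRNA against SET or a control siRNA for 96 h. The groups were KO-labelled cells with SET siRNA (n = 2), KO-labelled cells with control siRNA (n = 2), WT-labelled cells with SET siRNA (n = 3) and WT-labelled cells with control siRNA (n = 3). SET is a histone chaperone that binds p53 and inhibits protein phosphatase 2A, and the series title puts the question in the genes governed by p53 and SET together. The design text describes the lines as found by clone identification, so each genotype is 1 line, and a difference caused by the p53 edit cannot be told apart from another difference between the lines. That text also contradicts itself, because it names SET as the CRISPR target while describing a p53 knockout, so the lines are called KO-labelled and WT-labelled. Replicates are called biological in the labels with no statement of how their cultures were kept apart. The p-values therefore reflect only the spread among these libraries, which may be technical.

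CDK inhibitors are small proteins that bind cyclin-dependent kinases and hold back cell division. The CIP/KIP branch (CDKN1A, CDKN1B and CDKN1C, encoding p21, p27 and p57) binds complexes of cyclins with CDKs, and CDKN1A is a classical p53 target gene. The INK4 branch (CDKN2A, CDKN2B, CDKN2C and CDKN2D, encoding p16, p15, p18 and p19) binds CDK4 and CDK6 and keeps cyclin D away. Inhibited CDKs leave the retinoblastoma protein unphosphorylated, and it then restrains E2F factors. CDKN2A also encodes ARF, which restrains MDM2, and the gene-level values used here merge both transcripts.

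Promoter windows are shown for CDKN1A and for the pair of INK4 genes with the largest falls in WT-labelled cells, CDKN2C and CDKN2D. Each holds 250 bases before to 50 bases after an annotated start, from RefSeq on build GRCh38.p14, printed 5′ to 3′ on the gene's strand. Capitals mark a GC box (GGGCGG, on either strand) or a CCAAT box (CCAAT, on either strand). The windows are chr6:36678464-36678763 (plus strand) for CDKN1A, chr1:50968456-50968755 and chr1:50969995-50970294 (both plus strand) for starts 2 and 3 of CDKN2C, and chr19:10568930-10569229 (minus strand) for CDKN2D.
CDKN1A: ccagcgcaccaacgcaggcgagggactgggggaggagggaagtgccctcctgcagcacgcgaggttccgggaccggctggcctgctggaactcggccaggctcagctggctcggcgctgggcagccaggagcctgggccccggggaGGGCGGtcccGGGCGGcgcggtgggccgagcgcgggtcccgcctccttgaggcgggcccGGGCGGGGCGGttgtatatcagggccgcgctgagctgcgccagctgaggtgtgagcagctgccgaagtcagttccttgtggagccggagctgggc
CDKN2C start 2: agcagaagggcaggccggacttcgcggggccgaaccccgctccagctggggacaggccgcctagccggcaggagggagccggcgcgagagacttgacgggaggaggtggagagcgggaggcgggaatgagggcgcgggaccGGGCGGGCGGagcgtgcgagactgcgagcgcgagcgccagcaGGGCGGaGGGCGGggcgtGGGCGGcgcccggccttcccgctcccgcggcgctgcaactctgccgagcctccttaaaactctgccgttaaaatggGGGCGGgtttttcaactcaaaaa
CDKN2C start 3: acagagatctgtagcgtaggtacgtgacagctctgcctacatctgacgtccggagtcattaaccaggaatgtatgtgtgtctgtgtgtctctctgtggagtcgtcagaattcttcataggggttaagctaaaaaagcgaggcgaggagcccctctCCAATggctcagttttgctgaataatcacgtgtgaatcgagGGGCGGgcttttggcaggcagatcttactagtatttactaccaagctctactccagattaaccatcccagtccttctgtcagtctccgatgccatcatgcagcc
CDKN2D: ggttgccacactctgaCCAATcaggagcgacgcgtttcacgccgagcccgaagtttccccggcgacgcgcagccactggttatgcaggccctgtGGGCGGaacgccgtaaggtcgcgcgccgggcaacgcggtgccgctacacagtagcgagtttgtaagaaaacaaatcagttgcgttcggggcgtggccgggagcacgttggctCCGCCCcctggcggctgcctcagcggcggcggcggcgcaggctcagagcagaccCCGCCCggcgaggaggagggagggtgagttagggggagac

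Of the 7 genes 6 were matched to RefSeq windows (not CDKN1C), 9 windows in all. The CDKN1A window held 4 GC boxes, which begin 104, 94, 45 and 40 bases before the start, and the last pair share a base. At least 4 GC boxes were found in 9.06% of all 35116 windows, and at least 1 in 45.0%. Neither a p53 response element nor a single p53 half-site lay in the CDKN1A window. The p53 sites of CDKN1A are known from farther upstream, outside these letters. Half-sites occurred in 6.63% of all windows. Start 2 of CDKN2C held 6 GC boxes, of which the first pair overlap, while start 3 held 1 GC box and 1 CCAAT box. The remaining CDKN2C window, at start 1, held neither. The CDKN2D window had 3 GC boxes and 1 CCAAT box. CCAAT occurred in 34.6% of all windows. The E2F motif (TTTGGCGC, TTTCCCGC, TTTCGCGC or TTTGCCGC, on either strand) was in none of the 9 windows and in 3.32% of all windows. These matches describe letters and do not show binding.

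The files' own coordinates, in a build not given in the sources used here, put CDKN1A on chromosome 6 at 36644237 to 36655116, CDKN1B on chromosome 12 at 12870302 to 12875305 and CDKN1C on chromosome 11 at 2904448 to 2906995. CDKN2C lies on chromosome 1 at 51434367 to 51440309 and CDKN2D on chromosome 19 at 10677138 to 10679655. On chromosome 9, CDKN2A spans 21967751 to 21994490 and CDKN2B 22002902 to 22009312. CDKN2B lies inside the span of the antisense entry CDKN2B-AS, which averaged below 0.1 FPKM in each of the 4 groups. These are spans of whole genes, and the files do not mark exons, introns or UTRs within them.

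Values are FPKM, fragments scaled to transcript length and to all mapped fragments of a library, as the authors deposited them with Cufflinks' interval. FPKM is per length, so levels of different genes can be set side by side. Depth was not stated. The intervals imply relative depths from 0.908 to 1.38 of the first WT-labelled control library. For the 6 members above 1 FPKM the intervals reached 1.29 to 22.5% to either side of the value. SET averaged 14.9 ± 0.0302 FPKM with SET siRNA and 164 ± 8.22 with control siRNA in KO-labelled cells (SD, n = 2 each). In WT-labelled cells it averaged 12.5 ± 0.656 with SET siRNA and 124 ± 2.64 with control siRNA (SD, n = 3 each). Of 9 osteoblast and mesenchymal markers 7 passed the filter on low values, and COL1A2 and BGLAP were below 1 FPKM everywhere. Every blood and endothelial marker listed was below 1 FPKM.

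CDKN1A was the member that differed most between the groups. KO-labelled cells with SET siRNA had 19.4 and 19.3 FPKM, and KO-labelled cells with control siRNA had 6.84 and 6.51 FPKM. WT-labelled cells had 741, 721 and 699 FPKM with SET siRNA, against 163, 170 and 153 FPKM with control siRNA. No library of any group overlapped another group. Overlap of libraries was examined for the CDK inhibitors only and not over all genes, so here and below a gap by itself says little about a member. The SET siRNA libraries lay above the control siRNA libraries in both lines, and every KO-labelled library lay below every WT-labelled one. In these bulk libraries, fewer cells with a transcript and less of it per cell cannot be told apart.

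**Figure D1:**
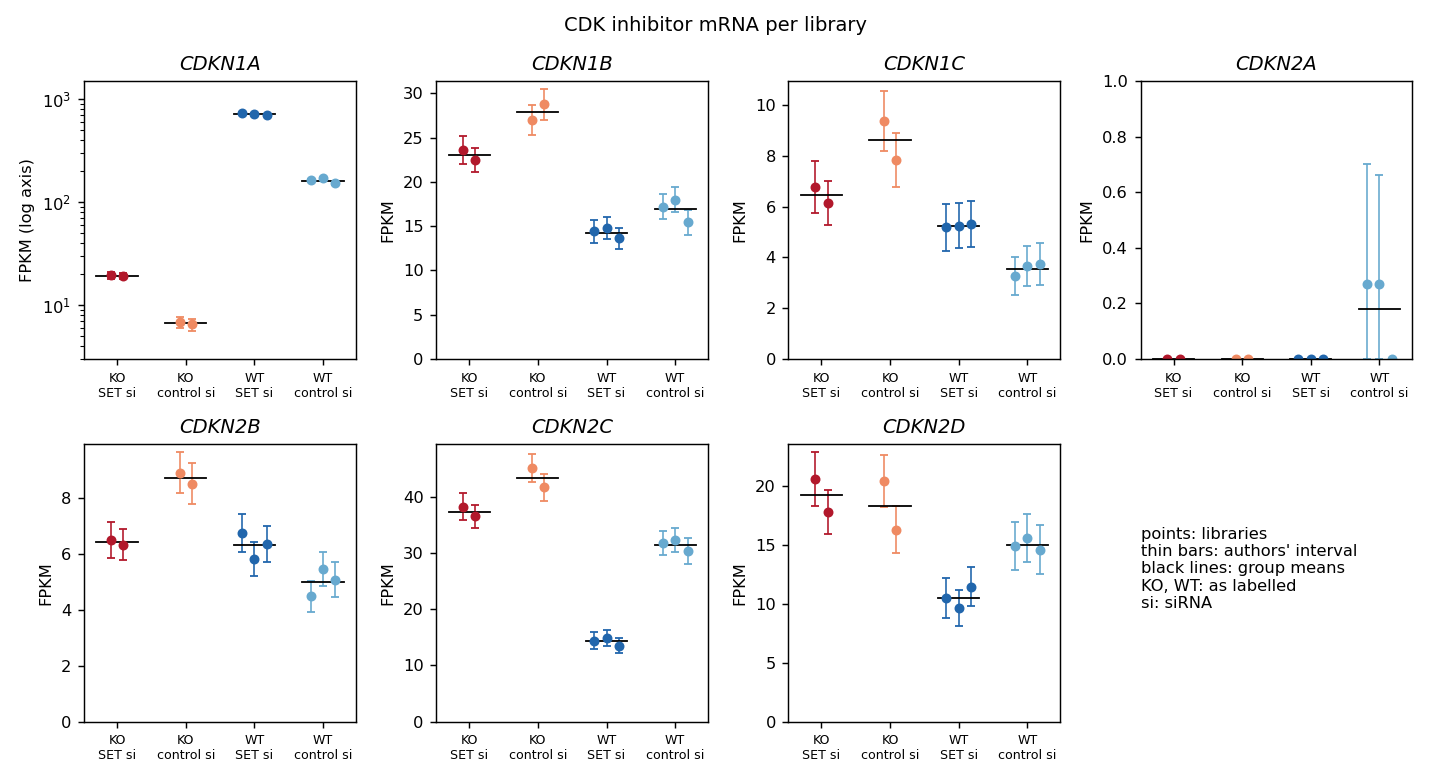
FPKM of each member in every library (log axis for CDKN1A, linear axes from 0 for the others), by group, with points for libraries, thin bars for the authors' interval and black lines for group means. CDKN1A spans 6.51 to 741 FPKM over the 10 libraries, while CDKN1B stays between 13.6 and 28.8 FPKM and CDKN2A is listed at 0 in 8 libraries.

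In the WT-labelled line, the siRNA comparison asked how the family answers loss of SET mRNA where p53 is labelled intact. CDKN1A rose 4.45-fold, to 720.3 ± 21.2 FPKM with SET siRNA against 162 ± 8.42 FPKM with control siRNA (SD, n = 3 each), a difference of 558 FPKM. On the log2(FPKM + 1) scale on which limma was run, the difference was 2.15 (SE 0.0460, adjusted p = 1.87e-08). Among all tested genes this was the 40th largest rise. All 6 tested members passed the test in this comparison, 3 up and 3 down, where 54.8% of the 14813 tested genes passed, 30.8% up and 24.0% down. All 6 were above 1 FPKM in all 10 libraries, so no member was tested only for its level in the group where it was high. With so large a background, the count by itself says little about the family.

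The other CIP/KIP members moved little beside CDKN1A in WT-labelled cells. CDKN1C, the imprinted inhibitor p57, had 5.18, 5.25 and 5.32 FPKM with SET siRNA and 3.27, 3.67 and 3.74 FPKM with control siRNA. It rose by 0.46 on the log2 scale (adjusted p = 0.000684), with no overlap between the groups. CDKN1B, encoding p27, had 14.4, 14.8 and 13.6 FPKM with SET siRNA and 17.2, 18.0 and 15.5 FPKM with control siRNA. It fell by 0.22 (adjusted p = 0.0117), and its lowest control library stood only just above the highest SET siRNA library.

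Within INK4 the changes went both ways in WT-labelled cells. CDKN2C, encoding p18, had 14.4, 14.8 and 13.5 FPKM with SET siRNA and 31.8, 32.3 and 30.4 FPKM with control siRNA. It was 2.21-fold lower with SET siRNA, a log2 change of -1.09 (SE 0.0506, adjusted p = 6.26e-07), and every control library stood above every SET siRNA library by a wide gap. CDKN2D, encoding p19, had 10.5, 9.63 and 11.4 FPKM with SET siRNA and 14.9, 15.6 and 14.6 FPKM with control siRNA. It fell by 0.48 on the log2 scale (adjusted p = 0.00186), again without overlap. CDKN2B, encoding p15, had 6.74, 5.81 and 6.36 FPKM with SET siRNA and 4.48, 5.45 and 5.07 FPKM with control siRNA. It rose by 0.28 (adjusted p = 0.00875), with the closest SET siRNA and control libraries near each other but not crossing. CDKN2A was listed at 0 in all libraries with SET siRNA, and in WT-labelled cells with control siRNA it had 0.270 and 0.271 FPKM in libraries 1 and 2 and 0 in library 3. The authors' intervals for those values start at 0, so CDKN2A was not distinguishable from 0 in any library, and it was not tested.

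The same comparison in KO-labelled cells asked this where p53 is labelled as lost. CDKN1A rose 2.90-fold there, to 19.4 ± 0.111 FPKM with SET siRNA against 6.67 ± 0.231 FPKM with control siRNA (SD, n = 2 each), a difference of 12.7 FPKM. The log2 difference was 1.41 (SE 0.0563, adjusted p = 1.91e-06), the 72nd largest rise among tested genes. In KO-labelled cells 5 of 6 tested members passed the test, 1 up and 4 down, where 37.6% of tested genes passed, 19.8% up and 17.9% down. That count rested on single libraries. Between 2 and 5 members passed when 1 library at a time was left out, and 2 passed in a fit on the KO-labelled libraries alone. CDKN1A and CDKN2B passed in each of those fits.

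CDKN2B had 6.49 and 6.33 FPKM in KO-labelled cells with SET siRNA, against 8.91 and 8.51 FPKM with control siRNA. It fell by 0.39 on the log2 scale (adjusted p = 0.00828), the opposite direction from WT-labelled cells. CDKN1C had 6.79 and 6.14 FPKM with SET siRNA and 9.37 and 7.84 FPKM with control siRNA, and also fell, by 0.36 (adjusted p = 0.0124), where it had risen in WT-labelled cells. The call was lost without SET siRNA library 2 (adjusted p = 0.0853) or control library 1 (adjusted p = 0.0618), and in the fit on KO-labelled libraries alone (adjusted p = 0.0544).

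CDKN1B fell by 0.26 in KO-labelled cells (adjusted p = 0.0221), with 23.6 and 22.5 FPKM under SET siRNA and 27.0 and 28.8 FPKM under control siRNA. Without SET siRNA library 1 the adjusted p was 0.0581, without SET siRNA library 2 it was 0.118, and without control library 2 it was 0.104. It was 0.0502 with no filter and 0.0592 in the fit on KO-labelled libraries alone. CDKN2C stood at 38.2 and 36.5 FPKM with SET siRNA and 45.1 and 41.6 FPKM with control siRNA. It fell by 0.21 (adjusted p = 0.0252), a call lost without SET siRNA library 1 (0.0613) or 2 (0.136), without control library 1 (0.105), and in the fit on KO-labelled libraries alone (0.105). CDKN2D had 20.5 and 17.8 FPKM with SET siRNA and 20.4 and 16.2 FPKM with control siRNA. These libraries overlapped, the log2 difference was 0.07 (95% interval -0.18 to 0.32), and the test was not passed (adjusted p = 0.663). CDKN2A was listed at 0 in all 4 KO-labelled libraries.

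**Figure D2:**
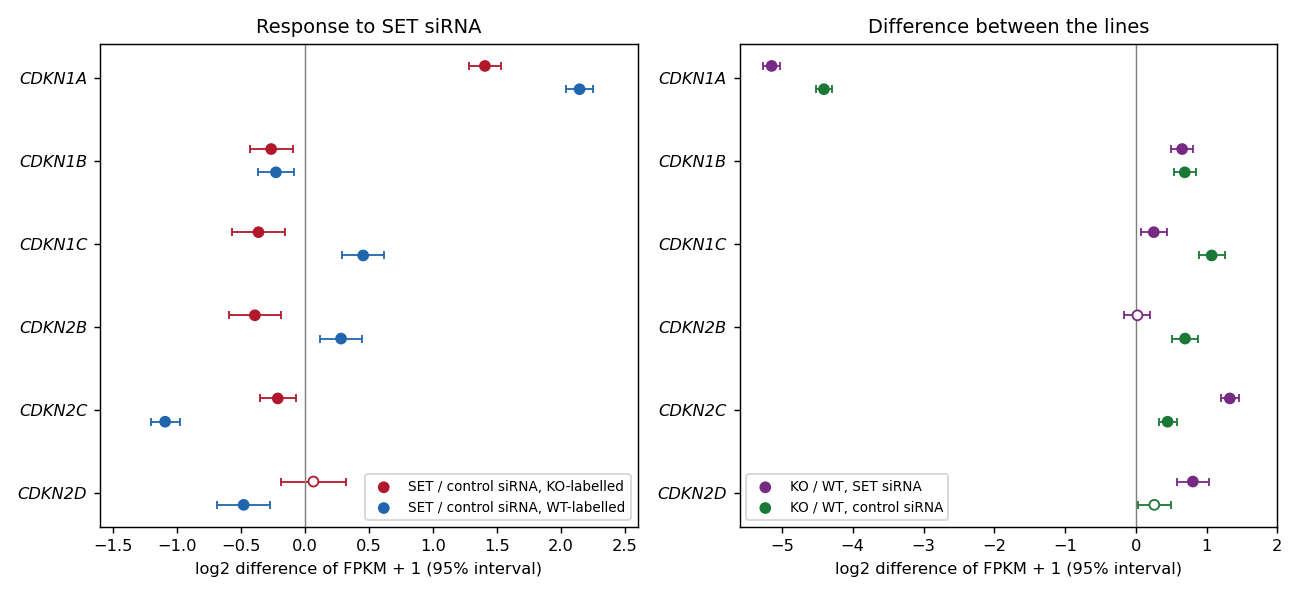
Differences in log2(FPKM + 1) of the 6 tested members with 95% limma intervals, between siRNAs in each line (left) and between lines under each siRNA (right), where filled points passed the test and open points did not. CDKN1A lies at 1.41 in KO-labelled and 2.15 in WT-labelled cells for SET over control siRNA, and at -5.15 with SET siRNA and -4.41 with control siRNA for KO-labelled against WT-labelled cells.

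The 2 responses were compared in one model, as the response in KO-labelled cells minus that in WT-labelled cells. By this test 5 of 6 tested members differed, 2 positive and 3 negative, where 19.1% of tested genes passed, 8.60% positive and 10.5% negative. When 1 library at a time was left out, 4 or 5 of the 6 passed. For CDKN1A the difference of responses was -0.74 (SE 0.0727, adjusted p = 0.000469). With a pseudocount of 0.1 in place of 1 it was -0.63, which is closer to the ratio of the FPKM folds, because adding 1 shrinks changes at the low levels of KO-labelled cells. CDKN1A therefore rose in both lines on a ratio scale, by a smaller ratio in KO-labelled cells, and the absolute rise there was 12.7 FPKM, against 558 FPKM in WT-labelled cells.

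CDKN2C had a difference of responses of 0.88 (SE 0.0800, adjusted p = 0.000334), since its log2 change was -0.21 in KO-labelled cells and -1.09 in WT-labelled cells. CDKN1C and CDKN2B differed in the other direction, by -0.82 (adjusted p = 0.00262) and -0.67 (adjusted p = 0.00577), with falls in KO-labelled cells and rises in WT-labelled cells. CDKN2D differed by 0.54 (adjusted p = 0.0302), and its call did not hold in every fit. It was lost without KO-labelled SET siRNA library 1 (adjusted p = 0.124), KO-labelled control library 2 (0.0906), WT-labelled SET siRNA library 1 (0.0619) or 2 (0.0653), WT-labelled control library 1 (0.0578) or 2 (0.0617), and with no filter (0.0878). For CDKN1B the difference of responses was -0.04 with a 95% interval of -0.25 to 0.18 (adjusted p = 0.809), so a difference within that interval is not excluded.

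**Figure D3:**
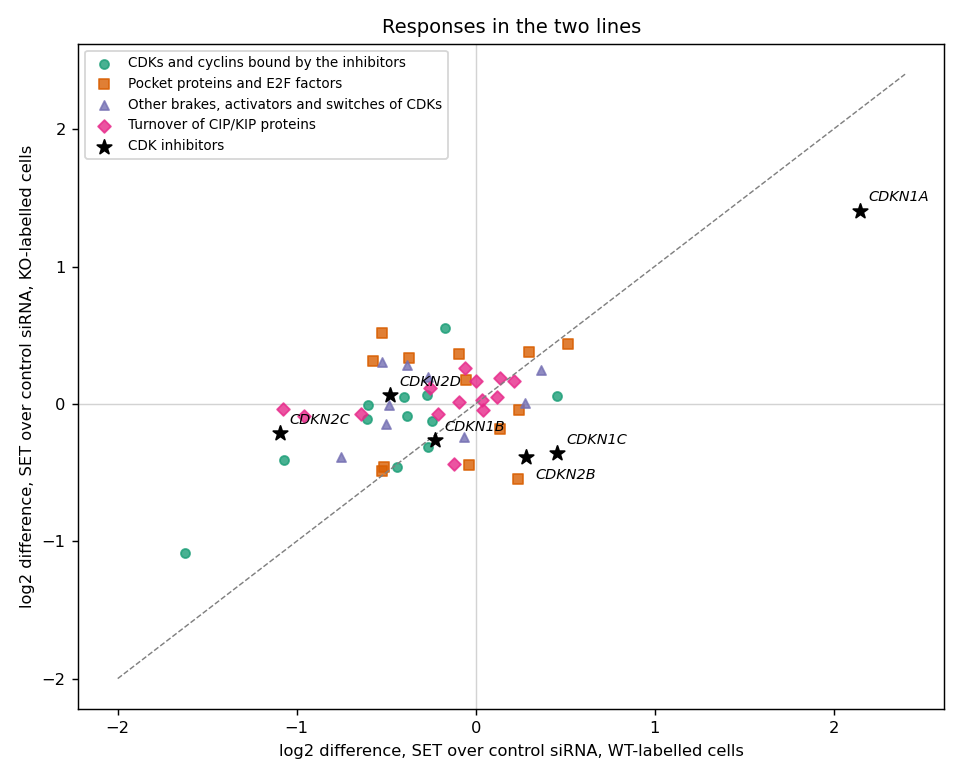
Response to SET siRNA in KO-labelled cells (vertical axis) against that in WT-labelled cells (horizontal axis), both as log2(FPKM + 1) differences, for the 6 tested members (black stars) and the tested genes of 4 lists of their partners (coloured symbols), with a dashed line of equal response. CDKN1A lies at 1.41 up and 2.15 across, below the line, and CDKN2C at -0.21 up and -1.09 across, above it.

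Under control siRNA the lines themselves were compared. CDKN1A was 24.3-fold lower in KO-labelled cells, at 6.67 ± 0.231 FPKM (n = 2) against 162 ± 8.42 FPKM (n = 3) in WT-labelled cells (SD). The log2 difference was -4.41 (SE 0.0514, adjusted p = 1.68e-10), and 3 of the 14813 tested genes had a lower value. By the test 5 of 6 members differed between the lines, 1 lower and 4 higher in KO-labelled cells, where 47.9% of tested genes passed, 22.2% lower and 25.7% higher. CDKN1C was higher by 1.07 (adjusted p = 1.46e-05), CDKN2B by 0.70 (adjusted p = 0.000163), CDKN1B by 0.69 (adjusted p = 6.15e-05) and CDKN2C by 0.45 (adjusted p = 0.000255). The libraries of the lines did not overlap for any of these, a trait that was not counted over all genes. For CDKN2D the KO-labelled libraries also lay above the WT-labelled ones, but the difference of 0.26 missed the threshold (adjusted p = 0.0593). Without KO-labelled control library 2 it was 0.42 and passed (adjusted p = 0.0160).

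Under SET siRNA, CDKN1A was 37.2-fold lower in KO-labelled cells, at 19.4 ± 0.111 FPKM (n = 2) against 720.3 ± 21.2 FPKM (n = 3) in WT-labelled cells (SD), a log2 difference of -5.15 (adjusted p = 4.04e-11). Again 5 of 6 members passed, 1 lower and 4 higher in KO-labelled cells, where 48.4% of tested genes passed, 24.8% lower and 23.6% higher. CDKN2C had the largest of these 4 rises over WT-labelled cells, with 37.3 ± 1.19 FPKM in KO-labelled cells (n = 2) against 14.3 ± 0.673 FPKM in WT-labelled cells (n = 3), a difference of 1.33 (adjusted p = 2.23e-07). CDKN2D was higher by 0.81 (adjusted p = 0.000182) and CDKN1B by 0.66 (adjusted p = 5.59e-05). CDKN1C was higher by 0.25 (adjusted p = 0.0292), a call lost without KO-labelled library 1 (adjusted p = 0.195), without WT-labelled library 1 (0.0704), 2 (0.0636) or 3 (0.0550), and with no filter (0.0587). CDKN2B differed by 0.02 (95% interval -0.16 to 0.21, adjusted p = 0.835), and its KO-labelled values lay inside the range of the WT-labelled ones. The comparisons between lines and those between siRNAs share libraries, so their values stand side by side and are not independent of each other.

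RNA of cell type markers moved with the groups too. Of 7 epithelial markers 5 were tested, and 4 of these were lower in KO-labelled than in WT-labelled cells under each siRNA. CDH1, 1 of those 4, was below 1 FPKM in every KO-labelled library and passed the filter only through WT-labelled libraries. Its difference between the lines therefore follows in part from the filter. Over all tested genes 24.8% were lower with SET siRNA and 22.2% with control siRNA. The 7 summed to 278 to 281 FPKM in KO-labelled cells with SET siRNA, 288 to 327 FPKM in KO-labelled cells with control siRNA, 500.3 to 513 FPKM in WT-labelled cells with SET siRNA and 665 to 699.9 FPKM in WT-labelled cells with control siRNA. KRT8 and KRT18, keratins that many cultured lines express, made up most of each sum, KRT19 and ESRP1 were below 1 FPKM everywhere, and EPCAM averaged at most 4.12 FPKM. With SET siRNA 1 of the 5 tested rose and 2 fell in KO-labelled cells, where 37.6% of all tested genes passed. In WT-labelled cells 2 rose and 2 fell, where 54.8% passed. EPCAM rose in both, by 0.91 in KO-labelled and 0.84 in WT-labelled cells, against the direction of the sums. With SET siRNA, osteoblast and mesenchymal markers fell for 6 of the 7 tested in KO-labelled cells and for 7 of 7 in WT-labelled cells. Over all tested genes 17.9% fell in KO-labelled and 24.0% in WT-labelled cells. The 9 listed reached a sum of 1484 to 1622 FPKM in KO-labelled cells with SET siRNA and 1985 to 2101 FPKM with control siRNA. In WT-labelled cells they reached 1246 to 1370 FPKM with SET siRNA and 1958 to 2009 FPKM with control siRNA. The part of these shifts in the values of the CDK inhibitors was not tested.

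The order of the family by level differed between the lines. In WT-labelled cells CDKN1A came first under both siRNAs, and every library put it above all other members. With SET siRNA it was followed by CDKN1B (14.3 ± 0.586 FPKM) and CDKN2C (14.3 ± 0.673 FPKM), whose libraries overlapped, then CDKN2D (10.5 ± 0.912), CDKN2B (6.30 ± 0.466), CDKN1C (5.25 ± 0.0654) and CDKN2A (SD, n = 3). With control siRNA CDKN2C came second at 31.5 ± 1.00 FPKM, then CDKN1B (16.9 ± 1.30) and CDKN2D (15.0 ± 0.499), whose libraries overlapped, CDKN2B (5.001 ± 0.490) and CDKN1C (3.56 ± 0.254).

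KO-labelled cells put CDKN2C first and CDKN1B second under both siRNAs. With SET siRNA these averaged 37.3 ± 1.19 and 23.1 ± 0.802 FPKM, followed by CDKN1A (19.4 ± 0.111) and CDKN2D (19.2 ± 1.95), which overlapped, and by CDKN1C (6.46 ± 0.458) and CDKN2B (6.41 ± 0.118), which also overlapped (SD, n = 2). With control siRNA they averaged 43.4 ± 2.47 and 27.9 ± 1.26 FPKM, followed by CDKN2D (18.3 ± 2.91), then CDKN2B (8.71 ± 0.282) and CDKN1C (8.61 ± 1.08), which overlapped, and CDKN1A (6.67 ± 0.231). CDKN1A was therefore the lowest of the 6 detected members there. CDKN2A was last in all 4 groups.

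Summed over the 7 members, the family reached 112 ± 4.62 FPKM in KO-labelled cells with SET siRNA and 114 ± 5.72 FPKM with control siRNA (SD, n = 2 each). In WT-labelled cells the sum was 771 ± 21.6 FPKM with SET siRNA and 234 ± 11.4 FPKM with control siRNA (SD, n = 3 each). CDKN1A made up 16.9 and 17.8% of the sum in KO-labelled cells with SET siRNA and 5.81 and 5.95% with control siRNA. In WT-labelled cells it made up 93.3 to 93.5% with SET siRNA and 68.9 to 69.4% with control siRNA. Without CDKN1A both KO-labelled groups lay above both WT-labelled groups. The other 6 members summed to 92.4 ± 4.51 FPKM in KO-labelled cells with SET siRNA, 107 ± 5.49 with control siRNA, and to 50.6 ± 0.547 in WT-labelled cells with SET siRNA and 72.1 ± 3.03 with control siRNA.

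**Figure D4:**
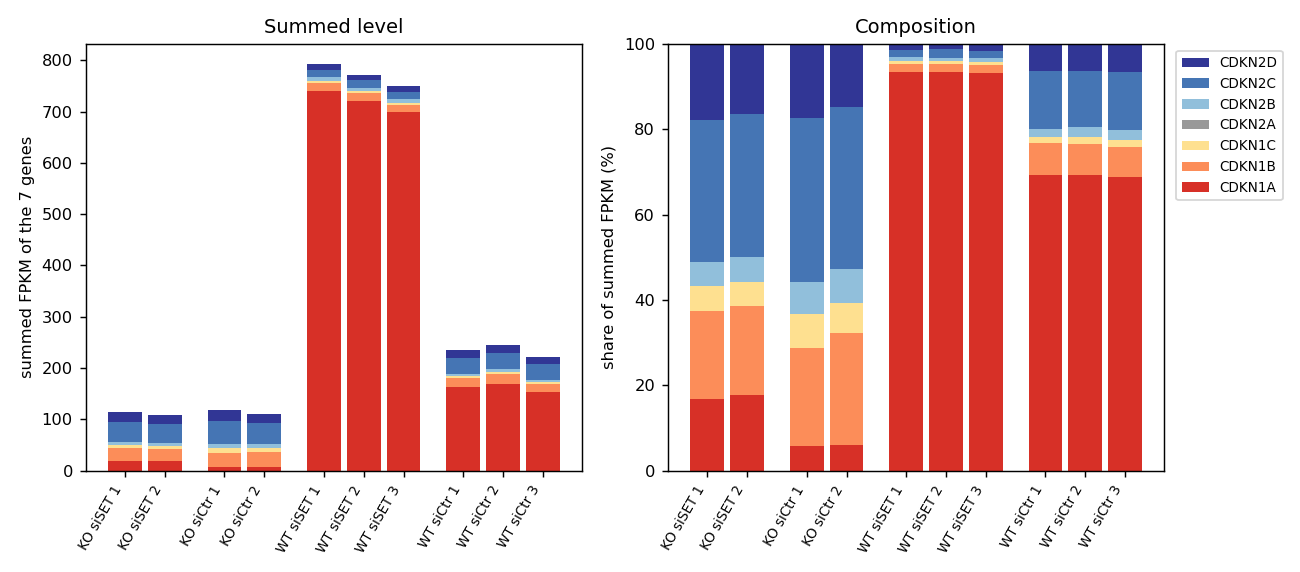
Summed FPKM of the 7 members (left) and the share of each member in that sum in percent (right), as stacked bars for the 10 libraries. CDKN1A fills 68.9 to 93.5% of the right-hand bar in WT-labelled libraries and 5.81 to 17.8% in KO-labelled libraries, where CDKN2C takes the largest share.

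The kinases and cyclins that these proteins bind were examined next. Genes of this and the following lists that are named with a log2 value passed the test unless stated otherwise. Of 13 listed genes 12 were tested, and with SET siRNA in WT-labelled cells 11 fell and 1 rose, where 54.8% of all tested genes passed. The median log2 change was -0.39, against 0.04 over all tested genes. The S-phase cyclin CCNA2 fell by 1.62, CCNE2, a partner of CDK2, by 1.07, CCNB1, the mitotic partner of CDK1, by 0.61 and CCND3, a partner of CDK4 and CDK6, by 0.60. In KO-labelled cells 4 fell and 1 rose, a share near the 37.6% over all tested genes, with a median of -0.10, against 0.02 over all tested genes. There CCNA2 fell by 1.08, CDK6 by 0.46 and CCNE2 by 0.41, and CCNE1 rose by 0.55. The responses differed for 9 of the 12, where 19.1% of all tested genes differed, with 8 positive and 1 negative, and a median of 0.39, against -0.03 over all tested genes. CCNE1 (0.72), CCNE2 (0.66), CCND3 (0.59) and CCNA2 (0.54) had the largest differences of responses.

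Downstream of the kinases, 13 pocket proteins and E2F factors were tested. In WT-labelled cells 4 rose and 5 fell with SET siRNA, where 54.8% of all tested genes passed, with a median of -0.05, against 0.04 over all tested genes. E2F1, an activator of S-phase genes, fell by 0.58, E2F5 by 0.52 and E2F2, a second activator, by 0.52, while E2F6, a repressor, rose by 0.52. In KO-labelled cells 7 rose and 4 fell, where 37.6% of all tested genes passed, with a median of 0.18, against 0.02 over all tested genes. E2F2 rose there by 0.52, while E2F7, a repressor, fell by 0.55, E2F5 by 0.49 and RBL1, which encodes p107, by 0.46. The responses differed for 7 of the 13, where 19.1% of all tested genes differed, led by E2F2 (1.04), E2F1 (0.89), E2F7 (-0.78) and E2F8 (0.71).

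Other brakes and activators of CDKs numbered 9, all tested. In WT-labelled cells 2 rose and 6 fell, where 54.8% of all tested genes passed. The median was -0.39, against 0.04 over all tested genes. The largest changes were in the phosphatases CDKN3 (-0.75), CDC25A (-0.52), CDC25C (-0.50) and CDC25B (-0.48). In KO-labelled cells 3 rose and 3 fell, where 37.6% of all tested genes passed. The median was 0.01, against 0.02 over all tested genes, and those called included CDKN3 (-0.39), CDC25A (0.31), CCNH (0.25) and CDK7 (-0.24), the last pair being subunits of the CDK-activating kinase. The responses differed for 6 of the 9, where 19.1% of all tested genes differed, all positive, with CDC25A at 0.83, the inhibitory kinase PKMYT1 at 0.67, CDC25B at 0.48 and the inhibitory kinase WEE1 at 0.46.

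The 14 listed genes that act in turnover of CIP/KIP proteins were all tested. In WT-labelled cells 2 rose and 5 fell with SET siRNA, a share near the 54.8% over all tested genes. The largest changes were in CDC20, a substrate adaptor of the anaphase-promoting complex (-1.07), DTL, the adaptor that presents p21 to the CUL4 ligase (-0.96), SKP2, the adaptor for p27 (-0.64), and UBAC1, a subunit of the KPC ligase for p27 (-0.25). In KO-labelled cells 3 rose and 1 fell, where 37.6% of all tested genes passed. CUL4B was at -0.44, CKS1B, the cofactor of SKP2, at 0.26, DDB1 at 0.19 and PSME3 at 0.17. The responses differed for 4 of the 14, where 19.1% of all tested genes differed, all positive, in CDC20 (1.04), DTL (0.87), SKP2 (0.57) and CKS1B (0.32). RNA levels do not measure the stability of the p21 or p27 protein.

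Of 23 transcription factors and cofactors that act on CDKN1A, 20 were tested. With SET siRNA in WT-labelled cells 6 rose and 7 fell, where 54.8% of all tested genes passed, with a median of -0.06, against 0.04 over all tested genes. MDM2, the ubiquitin ligase that restrains p53 and is itself a p53 target, rose by 2.29 and MDM4, its partner, by 0.52, while TP73, a relative of p53, fell by 0.44. In KO-labelled cells 4 rose and 4 fell, a share near the 37.6% over all tested genes, with MYC, a repressor of CDKN1A, at 0.68, ZBTB17, which recruits MYC to CDKN1A, at 0.31, and the acetyltransferase EP300 at -0.27. MDM2 there had a log2 difference of 0.20 and did not pass (adjusted p = 0.118). MYC also rose in WT-labelled cells, by 0.37, and EP300 also fell there, by 0.17. ZBTB17 did not pass in WT-labelled cells (0.03, adjusted p = 0.751). The responses differed for 7 of the 20, where 19.1% of all tested genes differed, with MDM2 at -2.10, TP73 at 0.66, MDM4 at -0.51 and the vitamin D receptor VDR at 0.41. MDM2 averaged 16.6 ± 0.298 FPKM in KO-labelled cells with SET siRNA and 14.4 ± 1.86 FPKM with control siRNA (SD, n = 2 each). In WT-labelled cells it averaged 204 ± 14.3 FPKM with SET siRNA and 40.9 ± 2.09 FPKM with control siRNA (SD, n = 3 each).

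The genes whose pattern over the 10 libraries was most like that of CDKN1A were found by distance. Each gene's log2(FPKM + 1) was centred and scaled to an SD of 1, and the root mean square distance to CDKN1A was taken. The 8 nearest of 14541 genes compared lay at distances of 0.0730 to 0.104, where the median gene lay at 1.33. They were IGFN1, the Notch ligand JAG1, TRIML2, the RNA demethylase FTO, the nitric oxide synthase NOS1, the splicing factor RBFOX3, the guanylate-binding protein GBP3 and PDPR, a regulator of pyruvate dehydrogenase phosphatase. IGFN1, NOS1 and RBFOX3 were below 1 FPKM in every KO-labelled library and passed the filter only through WT-labelled libraries, so their difference between the lines follows in part from the filter. TRIML2 averaged 7.10 ± 0.382 FPKM in KO-labelled cells with SET siRNA and 3.46 ± 0.258 FPKM with control siRNA (SD, n = 2 each). In WT-labelled cells it averaged 44.7 ± 1.68 FPKM with SET siRNA and 20.7 ± 2.31 FPKM with control siRNA (SD, n = 3 each). FTO kept the same order over a much smaller range, at 13.9 ± 0.279 and 13.1 ± 0.0508 FPKM in KO-labelled cells with SET and control siRNA (SD, n = 2 each). It stood at 18.4 ± 0.466 and 16.5 ± 0.230 FPKM in WT-labelled cells with SET and control siRNA (SD, n = 3 each). Scaling removes the size of a change, so the list is of shapes only.

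None of the other 5 tested CDK inhibitors was near CDKN1A, and CDKN2A was not compared. CDKN2B was nearest, at a distance of 1.69, followed by CDKN1C (1.73), CDKN2D (1.85), CDKN2C (1.85) and CDKN1B (1.89), all farther than the median gene. On this scale the largest distances belong to genes whose pattern runs opposite to that of CDKN1A. Counted from the nearest, CDKN2D ranked 13730, CDKN2C 13878 and CDKN1B 14493 where 14541 genes were compared, so these ran largely opposite to CDKN1A. CDKN2B ranked 11252 and CDKN1C 11819, less far toward the opposite end.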

How the data were processed

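Expression was measured in 10 libraries in 4 groups, taken from the sample labels. TruSeq libraries were made from total RNA per the labels' protocols. The authors deposited FPKM per gene with an interval and status per the file headers, and bcl2fastq 1.8.4, TopHat2 2.0.4 and Cufflinks 2.0.2 are named per the submitters' processing notes. For genome build, annotation and strand use: not given in the sources used here. The labels give no batch. Coordinates are the files', counted from 1. The interval level is not stated.

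FPKM are not counts, so limma 3.58.1 in R 4.3.3 (trend on) was fitted to log2(FPKM + 1) of all 10 libraries and 4 groups. A gene was tested if 2 or more libraries had FPKM of 1 or more, which left 14813. Every adjusted p is from limma, adjusted by Benjamini-Hochberg over all tested genes and called below 0.05. Log2 differences understate changes of low genes. On simulated data with 200 changed genes, 96% of 1.5-fold changes were recovered for SET siRNA in WT-labelled cells, 95% in KO-labelled cells and 79% for the difference of responses. The changed genes were drawn only from genes above a mean level, and the noise was normal with the fitted spread. These rates therefore do not cover genes of low level, nor data in which as many genes change as here. Python 3.11.15 with pandas 2.3.3, numpy 2.4.6 and matplotlib 3.10.9 did the rest.

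All 7 members are named, and of each list up to 4 called genes with the largest change. A few genes so chosen are not reported here. KMT2A was listed as MLL and CDKN2B-AS1 as CDKN2B-AS. Members and lists were chosen with earlier results of these data known. The alternatives changed the pseudocount, the filter or the scaling, or used a replicate block, no trend, fewer libraries or all but 1 library.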

Additional observations from a re-analysis of the deposited data

Results flagged for a closer look

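Between the lines, 5 of the 6 tested CDK inhibitors responded differently to SET siRNA by the interaction term in limma, where 19.1% of tested genes differed. CDKN2C had a response in KO-labelled cells minus that in WT-labelled cells of 0.88 (log2, adjusted p = 0.000334), and CDKN1A of -0.74 (adjusted p = 0.000469). For CDKN1C the difference was -0.82 (adjusted p = 0.00262), and for CDKN2B -0.67 (adjusted p = 0.00577), with falls in KO-labelled cells and rises in WT-labelled cells. CDKN2D differed by 0.54 (adjusted p = 0.0302), a call that was lost without any one of 6 of the 10 libraries.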

How the results depend on the processing

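Each comparison was refitted with a pseudocount of 0.1, no filter, a filter of mean FPKM of at least 5, median-of-ratios scaling, quantile normalization, no trend, a replicate block, the compared libraries only (not for the interaction) and each library left out. No member changed direction where it was called. Of the refitted values of the 6 tested CDK inhibitors, 508 kept their side of the threshold, 24 were no longer called and 2 became called, as the text gives. CDKN1A kept its call in all of them, at 1.38 to 1.52 for SET siRNA in KO-labelled cells, 2.10 to 2.18 in WT-labelled cells, -0.79 to -0.63 for the interaction, and -5.21 to -5.13 with SET siRNA and -4.58 to -4.37 with control siRNA for KO-labelled against WT-labelled cells. Genes called for SET siRNA in KO-labelled cells numbered 5571, and 3631 in the fit on those libraries alone. With each library left out they numbered 3442 to 5816, and those of the interaction 1136 to 4587, against 2831 with all libraries. The KO-labelled count was 3442 without KO-labelled SET siRNA library 1 and 3683 without library 2. The lowest interaction count came without KO-labelled SET siRNA library 1 and the highest without KO-labelled control library 1. Without KO-labelled SET siRNA library 2 it was 1465, without KO-labelled control library 2 1726, and without WT-labelled SET siRNA libraries 1 and 2 it was 1822 and 1759. CDKN2A failed the filter, and low levels limit what its values show.

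Same-numbered libraries deviated together at correlations of -0.0908 to 0.254 over 13 pairs, not all above 0.1, so the numbers were not taken to pair the samples. With a replicate block CDKN1A was at 1.41 (adjusted p = 1.47e-05) in KO-labelled cells, 2.15 (adjusted p = 4.77e-07) in WT-labelled cells and -0.74 (adjusted p = 0.00100) for the interaction. For KO-labelled against WT-labelled cells the block gave -5.18 with SET siRNA and -4.44 with control siRNA. Genes called with the block numbered 6027 for SET siRNA in KO-labelled cells, 8472 in WT-labelled cells, 3400 for the interaction, and 7233 and 7189 between the lines with SET and control siRNA. Among the CDK inhibitors it changed 1 call, CDKN2D in KO-labelled against WT-labelled cells with control siRNA (0.28, adjusted p = 0.0412).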

Other observations

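The INK4 locus on chromosome 9 also holds MTAP, an enzyme of methionine salvage, on one side of CDKN2A and CDKN2B and the transcription factor DMRTA1 on the other. MTAP averaged 15.2 ± 0.604 FPKM in KO-labelled cells with SET siRNA and 15.4 ± 1.66 FPKM with control siRNA (SD, n = 2 each), and 16.8 ± 0.703 and 18.3 ± 0.717 FPKM in WT-labelled cells with SET and control siRNA (SD, n = 3 each). DMRTA1 averaged 4.49 ± 0.0564 FPKM in KO-labelled cells with SET siRNA and 6.28 ± 0.778 FPKM with control siRNA (SD, n = 2 each), and fell by 0.40 on the log2 scale (adjusted p = 0.0202, lower in 2 of 2 libraries). Both flanks of CDKN2A were thus measured above 4 FPKM in every group while CDKN2A itself was at or near 0.

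Of 17 neighbours and regulators of the INK4 locus 15 were tested. With SET siRNA 4 rose and 1 fell in KO-labelled cells, 5 rose and 4 fell in WT-labelled cells, and the responses differed for 1, the Polycomb methyltransferase EZH2 (0.48, adjusted p = 0.0121). Over all tested genes 37.6% passed in KO-labelled cells, 54.8% in WT-labelled cells and 19.1% for the difference of responses, so these counts are near or below the background. In WT-labelled cells the histone demethylase KDM6B rose by 0.60, the Polycomb subunit BMI1 fell by 0.54 and ID1, an inhibitor of ETS factors at CDKN2A, rose by 0.49. BMI1 averaged 65.3 ± 3.60 FPKM in KO-labelled cells (n = 2) and 34.4 ± 3.98 FPKM in WT-labelled cells (n = 3) with control siRNA (SD), a log2 difference of 0.91.

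Of 8 regulators of CDKN1B transcription, all tested, 3 rose and 5 fell in WT-labelled cells with SET siRNA, while in KO-labelled cells 1 rose and 1 fell, where 54.8% and 37.6% of all tested genes passed in WT-labelled and KO-labelled cells. FOXO1, an activator of CDKN1B, rose by 0.36 in KO-labelled and 0.70 in WT-labelled cells, while CDKN1B itself fell in both. In KO-labelled cells that fall of CDKN1B was not called without some of the libraries. MEN1, of the same list, moved in the direction of CDKN1B. It fell by 0.30 in KO-labelled cells (adjusted p = 0.00632) and by 0.39 in WT-labelled cells (adjusted p = 0.000227). FOXM1 fell by 0.48 in WT-labelled cells, and its response differed between the lines by 0.59 (adjusted p = 0.000410).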
